A study of Homo sapiens with 4 samples.

Results

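The genes described here are 9 components of interferon signalling, measured as RNA in 2 cell lines of fusion-negative rhabdomyosarcoma, a childhood tumour with features of arrested skeletal muscle. They are the receptor subunits IFNAR1 and IFNAR2, the kinase JAK1 and the transcription factors STAT2, IRF9, IRF1, IRF2, IRF3 and IRF7. They were taken by gene symbol from the 39323 genes of the expression tables, and all 9 were found and passed the filter on low values. RD and JR1 cells were infected with a lentivirus that carried a hairpin against SKP2, the substrate receptor of an SCF ubiquitin ligase (shSKP2), or a non-targeting hairpin (shSCR). The control cells had therefore been through infection as well, and cells that had not been infected were not analysed here. Each line gave 1 library of poly-A RNA with each hairpin, 4 in all, so differences could not be set against a spread between replicates and there are no p-values. Each line is 1 established culture, and a lower level in a bulk library can come from fewer cells that use a gene or from less RNA per cell, which cannot be told apart.

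Type I interferons bind a receptor made of IFNAR1 and IFNAR2. The receptor carries the kinases TYK2 and JAK1, which phosphorylate STAT factors. STAT2 and IRF9 are part of the complex ISGF3, which binds interferon-stimulated response elements (ISRE) in the promoters of antiviral genes. The response to interferon gamma uses another element, called GAS. IRF3 and IRF7 act earlier, when sensors of foreign nucleic acid switch on the interferon genes themselves. IRF1 activates promoters with such elements and IRF2 can compete with it at the same sites. Genes for several of these factors, IRF7, IRF9 and STAT2 among them, are themselves induced by interferon.

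The values are TPM, a measure of transcript abundance that is set per transcript length and scaled to the same total in each library. The number of reads is unknown, and so is the counting error of a single value. The change of a gene is log2 of its TPM + 1 with shSKP2 divided by its TPM + 1 with shSCR of the same line, which understates the change of low genes. The 12985 genes whose TPM averaged 1 or more across all libraries are called tested genes. Lower or higher is used of a gene as a count when its change reached 1 on this scale, a 2-fold step of TPM + 1. Pairs of TPM are given with shSCR first. SKP2 itself fell (92.8 to 7.40 TPM in RD, 46.5 to 2.72 in JR1). Short structural RNAs took 58.6% of the TPM in RD shSCR, 69.1% in RD shSKP2, 66.5% in JR1 shSCR and 72.1% in JR1 shSKP2, and tested genes had a median change of -0.27 (RD) and -0.21 (JR1). Without these RNAs, and with the rest scaled back to the same total, the medians were 0.12 and 0.01. Values on that scale are given for many genes but not all, and a small negative change can turn positive on it. The muscle identity of the lines was checked on MYOD1, at 87.0 to 131 TPM, and MYOG, at 31.6 to 107 TPM, while MYF5 was listed at 0 in all libraries. MYOG had 31.6 and 58.4 TPM in RD, and 54.0 and 107 TPM in JR1, with changes of 0.87 and 0.98. Of 8 muscle markers FGFR4, a growth factor receptor, fell in both lines (49.3 to 12.6 TPM in RD, 46.9 to 17.3 in JR1). NCAM1, an adhesion molecule, rose in JR1 (16.5 to 42.7 TPM) and had 13.6 and 21.3 TPM in RD. DES, an intermediate filament of muscle, had 39.3 and 43.4 TPM in RD, and 51.3 and 35.97 TPM in JR1. The summed level of the list was 464 and 603 TPM in RD, and 613 and 837 TPM in JR1, and the part of these markers in the results below was not tested. Of 10 markers of immune cells, 9 were under 1 TPM in every library and CD68 was at 2.28 to 2.87 TPM. MS4A1 and CLEC4C were listed at 0 in all, and the summed level of the list was 3.32 TPM in RD shSCR, 3.25 in RD shSKP2, 3.54 in JR1 shSCR and 2.82 in JR1 shSKP2.

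After SKP2 depletion STAT2 fell in both lines, and IRF7, IRF1 and IRF9 fell in JR1. The same 3 IRF genes had changes of -0.81 to -0.96 in RD, short of the limit, and of -0.49 to -0.67 without the short structural RNAs. IRF3 and JAK1 had smaller negative values in both lines, with JAK1 at 0.03 in RD without the short structural RNAs, and IRF2, IFNAR1 and IFNAR2 had changes between -0.10 and 0.30. In RD 1 of the 9 genes was lower by at least 1, beside 7.37% of all tested genes, and in JR1 4 of 9, beside 9.05%. No member was higher by at least 1, a step that 1.08% of tested genes reached in RD and 1.78% in JR1. The plot of levels by library shows the 4 values of each gene.

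**Figure D1:**
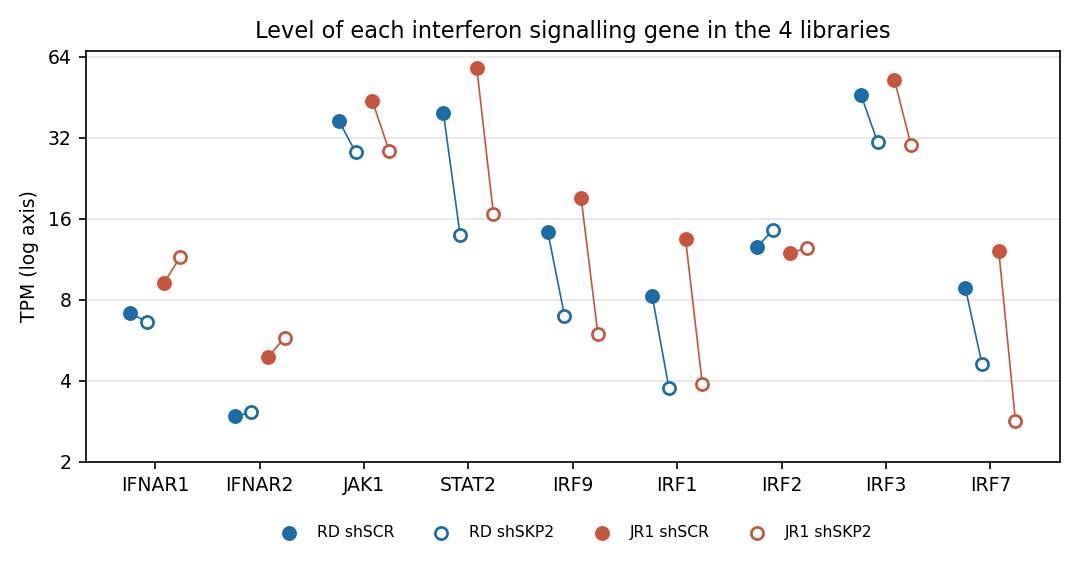
Level of the 9 genes in TPM (log axis) in RD (blue) and JR1 (red), with filled points for shSCR, open points for shSKP2 and a line joining the libraries of 1 cell line. Each point is 1 library. Within each cell line the steepest line is that of STAT2 in RD (39.6 to 13.9 TPM) and that of IRF7 in JR1 (12.2 to 2.83 TPM), and the lines of IRF2 and IFNAR2 run slightly upward.

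The receptor genes lie in the same stretch of chromosome 21, IFNAR2 from base 33229938 to base 33265664 and IFNAR1 from base 33324395 to base 33359864 (GRCh38, as are all positions here). IFNAR1 encodes the subunit that carries TYK2. It was at 7.15 TPM in RD shSCR, 6.61 in RD shSKP2, 9.20 in JR1 shSCR and 11.5 in JR1 shSKP2. The change was -0.10 (RD) and 0.30 (JR1), so the sign differed between the lines, and without the short structural RNAs both values were positive, at 0.29 and 0.57. IFNAR2 encodes the subunit that binds interferon most tightly and carries JAK1. It had the lowest TPM of the 9 genes in both control libraries, at 2.95 TPM in RD shSCR, 3.05 in RD shSKP2, 4.90 in JR1 shSCR and 5.79 in JR1 shSKP2. Its changes were 0.04 and 0.20, or 0.42 and 0.48 without the short structural RNAs.

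The genes of 2 further cytokine receptor subunits sit in this stretch, which spans 208 kb, and gave other values. IL10RB, shared by the receptors for IL-10 and for type III interferon, lies between IFNAR2 and IFNAR1. It was at 6.40 and 3.46 TPM in RD and at 9.03 and 5.08 TPM in JR1 (shSCR, then shSKP2), a change of -0.73 and -0.72. IFNGR2, the signalling subunit of the interferon gamma receptor, lies on the far side of IFNAR1. With 13.8 and 5.43 TPM in RD, and 15.5 and 7.70 TPM in JR1, its change of -1.20 passed the limit in RD while that of -0.92 in JR1 did not. Without the short structural RNAs the value in RD was -0.88. The chromosome segment therefore held genes with changes from -1.20 to 0.04 in RD. IFNGR1, the ligand-binding subunit encoded elsewhere, had changes of -0.19 in RD and 0.01 in JR1.

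JAK1, on chromosome 1 from base 64833229 to base 65067746, encodes the kinase used by type I, II and III interferon receptors alike. It was at 37.0 TPM in RD shSCR, 28.2 in RD shSKP2, 43.8 in JR1 shSCR and 28.7 in JR1 shSKP2. The change was -0.38 (RD) and -0.60 (JR1). In RD 38.8% of tested genes had a lower value, and without the short structural RNAs the change was 0.03 in RD and -0.35 in JR1. Among the other kinases of the family TYK2 had 30.7 and 21.5 TPM in RD, and 20.5 and 16.2 TPM in JR1. Its changes were -0.49 and -0.32, or -0.09 and -0.07 without the short structural RNAs. JAK2 was at 1.44 to 1.87 TPM in the 4 libraries and JAK3 did not exceed 0.07 TPM.

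STAT2, on chromosome 12 from base 56341597 to base 56360161, encodes the ISGF3 subunit that supplies most of the transactivating power of the complex. It was at 39.6 TPM in RD shSCR, 13.9 in RD shSKP2, 58.0 in JR1 shSCR and 16.6 in JR1 shSKP2. Both shSKP2 libraries lay below both shSCR libraries, by 2.84-fold within RD and by 3.49-fold within JR1. Its changes were -1.44 (RD) and -1.74 (JR1), and 2.33% of tested genes had a lower value in RD and 1.69% in JR1. STAT2 was the 1 member that fell in both lines, as did 4.79% of all tested genes. It stayed past the limit in both lines without the short structural RNAs, at -1.07 and -1.52.

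IRF9, on chromosome 14 from base 24161265 to base 24166565, encodes the subunit through which ISGF3 contacts DNA. It was at 14.3 TPM in RD shSCR, 6.99 in RD shSKP2, 19.0 in JR1 shSCR and 5.97 in JR1 shSKP2. The shSKP2 libraries were again the lower ones, by 2.05-fold in RD and 3.19-fold in JR1 as a plain ratio of TPM. With 1 TPM added its changes were -0.94 (RD) and -1.52 (JR1), so the fall in RD was counted or not according to the pseudocount (-1.02 with 0.1 TPM added). Without the short structural RNAs the value in RD was -0.59, and that in JR1 was -1.37.

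IRF1, the activator, fell in JR1 and IRF2, its competitor, had changes close to 0. IRF1, on chromosome 5 from base 132481609 to base 132490789, was at 8.28 TPM in RD shSCR, 3.77 in RD shSKP2, 13.4 in JR1 shSCR and 3.90 in JR1 shSKP2. The change in RD was -0.96, or -1.11 with 0.1 TPM added and -0.67 without the short structural RNAs, and that in JR1 was -1.56. IRF2, on chromosome 4 from base 184382741 to base 184474580, was at 12.5, 14.6, 11.9 and 12.5 TPM in the same order. IRF2 thus varied little over the 4 libraries, with changes of 0.20 and 0.06, or 0.62 and 0.32 without the short structural RNAs. The ratio of IRF2 to IRF1 within a library does not depend on the total that the TPM are scaled to. It was 1.51 in RD shSCR and 3.86 in RD shSKP2, and 0.888 in JR1 shSCR and 3.19 in JR1 shSKP2. IRF1 was thus the more abundant of the pair in JR1 shSCR alone among these 4 libraries.

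IRF3, on chromosome 19 from base 49659572 to base 49665857, encodes a factor that is present in resting cells and is activated by phosphorylation. It was at 46.2 TPM in RD shSCR, 30.8 in RD shSKP2, 52.7 in JR1 shSCR and 29.98 in JR1 shSKP2. The changes were -0.57 (RD) and -0.79 (JR1), or -0.16 and -0.54 without the short structural RNAs. IRF3 overlaps BCL2L12 at its start, which was at 44.1 and 30.7 TPM in RD and at 33.8 and 24.9 TPM in JR1. Whether reads of the pair were separated by strand is not given in the sources used here. IRF7, on chromosome 11 from base 612555 to base 615999, encodes the interferon-inducible factor of the same branch. It was at 8.85 TPM in RD shSCR, 4.61 in RD shSKP2, 12.2 in JR1 shSCR and 2.83 in JR1 shSKP2. Its changes were -0.81 (RD) and -1.78 (JR1), or -0.49 and -1.74 without the short structural RNAs, and in JR1 1.56% of tested genes and no other member had a lower value.

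Ratios between the genes show how the make-up of the pathway shifted, free of the scale of each library. IRF3 was 5.23 times the level of IRF7 in RD shSCR and 6.67 times in RD shSKP2, but 4.33 and 10.6 times in JR1. STAT2 to IRF9 was 2.76 and 1.99 in RD, and 3.04 and 2.79 in JR1. STAT2 to JAK1 went from 1.07 to 0.494 in RD and from 1.32 to 0.580 in JR1, which moved the factor from above to below the kinase in each line. IRF9 to IRF2 went from 1.14 to 0.480 and from 1.597 to 0.479. The 2 receptor chains kept a more even ratio, with IFNAR1 at 1.88 to 2.42 times IFNAR2 in all 4 libraries. None of these ratios has a replicate, so their spread is unknown.

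Ordered by TPM, IRF3, STAT2 and JAK1 headed the list in both control libraries, between 37.0 and 46.2 TPM in RD and between 43.8 and 58.0 TPM in JR1. IRF9 came next, and the receptor chains were last. With shSKP2 IRF3 and JAK1 stayed on top in both lines. STAT2 stood below IRF2 in RD and just above it in JR1. IRF7 was last in JR1 shSKP2, below IFNAR2. Neighbours in these orders cannot be said to differ, since each level comes from 1 library. The summed level of the 9 genes was 176.9 TPM in RD shSCR, 112.5 in RD shSKP2, 225.1 in JR1 shSCR and 117.8 in JR1 shSKP2.

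The change was lower in JR1 than in RD for 7 of the 9 genes, and for 42.1% of all tested genes. The change in RD minus that in JR1 ran from -0.40 for IFNAR1 to 0.97 for IRF7. None of the 9 differences reached 1, which 2.76% of all tested genes did in either direction. For IRF7 the difference was 1.14 with 0.1 TPM added, 1.03 after centring on the median of all tested genes and 1.25 without the short structural RNAs. In the shSCR libraries 8 of the 9 genes were lower in RD than in JR1, with log2 ratios from -0.64 for IRF1 to 0.07 for IRF2, while the median of all tested genes was 0.23. None reached 1 in size, beside 9.95% of tested genes. Relative to the median tested gene IRF2 was lower in RD too, at -0.17. The differences between lines were not tested, since each group holds 1 library.

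**Figure D2:**
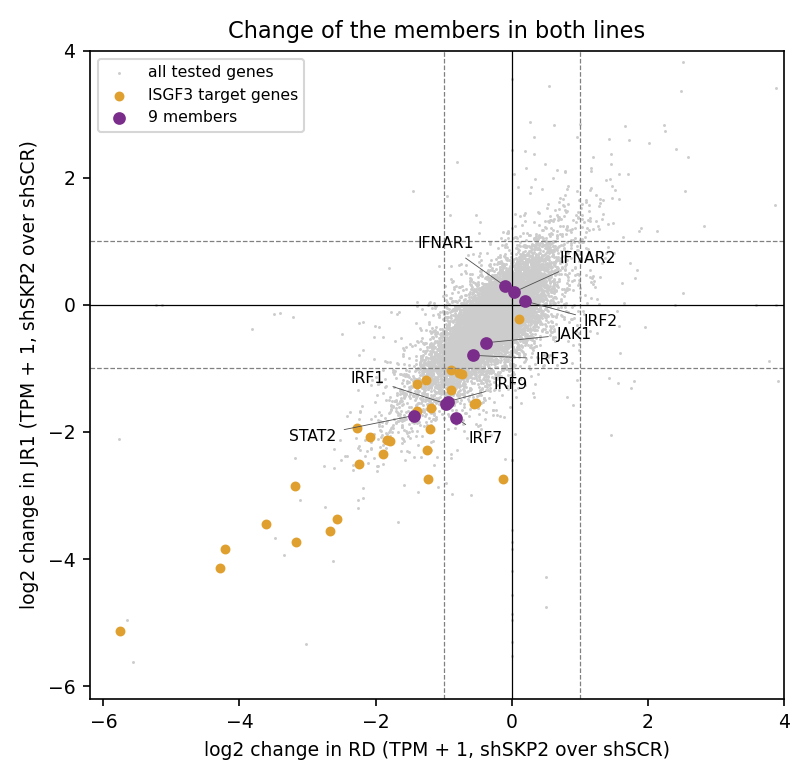
Log2 change of TPM + 1 (shSKP2 over shSCR) in RD (x axis) and JR1 (y axis) for all tested genes (grey), tested ISGF3 target genes (orange) and the 9 members (purple), with dashed lines at the limit of 1. Genes beyond the axes are not drawn. STAT2 lies past the limit in both lines, IRF7, IRF1 and IRF9 in JR1 only, and IRF2, IFNAR1 and IFNAR2 near the origin.

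The promoters were read for the elements through which these factors act, since 4 of the genes were lower together in JR1. RefSeq promoter windows (GRCh38.p14, 250 bases before to 50 after a start site) were used for 5 members: IRF1, IRF9, STAT2, JAK1 and IFNAR1. IRF2, IRF3, IRF7 and IFNAR2 had no window in the set used, so IRF7, among the genes lower in JR1, was not read. The ISRE core was searched as GAAANNGAAA and the GAS core as TTCNNNGAA, on both strands. The GAS core was in the windows of IRF1 and IRF9, in 2 of 5 members, beside 8.29% of the 10090 tested genes with a window. The ISRE core was in 0 of 5 members, beside 3.78% of those genes. Counted by window, the cores were in 7.66% (GAS) and 3.57% (ISRE) of all 35116 windows. STAT2, the member with the lowest change in RD, held neither core in its window (chr12:56360058-56360357). The matches of IRF1 and IRF9, and for comparison 1 ISRE core each of the ISGF3 target genes ISG15, IFIT3 and RSAD2 (the last 2 at a start site inside the gene), are printed below 5′ to 3′ in the direction of the gene, with the core in capitals. Positions are counted from the start site, and the core of ISG15 overlaps another match that begins at base -113. The other window of RSAD2 (chr2:6865635-6865934) held neither core, and the other window of IFIT3 held ISRE cores from bases -156 and -122.
IRF1, GAS core from base -124, chr5:132490879-132490907, minus strand: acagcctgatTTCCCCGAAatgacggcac
IRF9, GAS core from base -63, chr14:24161192-24161220, plus strand: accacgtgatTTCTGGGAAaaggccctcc
ISG15, ISRE core from base -107, chr1:1013380-1013409, plus strand: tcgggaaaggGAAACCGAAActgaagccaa
IFIT3, ISRE core from base -94, chr10:89332425-89332454, plus strand: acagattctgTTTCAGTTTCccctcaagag
RSAD2, ISRE core from base -145, chr2:6877622-6877651, plus strand: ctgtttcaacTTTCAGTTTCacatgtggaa

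Over all tested genes with a window, those with an ISRE core (381 genes) were lower by at least 1 in 11.02% of cases in RD and 15.7% in JR1, beside 7.10% and 8.52% of the 9709 genes without it. Their median changes were -0.30 in both lines, beside -0.28 in RD and -0.21 in JR1. The 381 genes include tested target genes of the lists described below, such as ISG15, IFIT1 and IFIT3. Of the target genes with a window, tested or not, 20 of 28 for ISGF3 and 14 of 18 for IRF1 and GAS held the ISRE core. The GAS core was in 9 of those 28 and 7 of those 18 genes, beside 2 of 5 members. The shares of lower genes without these targets were not computed. The 836 genes with a GAS core were lower in 6.22% of cases in RD and 8.73% in JR1, beside 7.34% and 8.80% without it. A match describes letters in a window and not a bound site.

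The other signalling genes were read from lists of 61 genes, 39 of which were tested. Of these 39 genes 5 were lower by at least 1 in RD (IFNGR2, STAT6, BATF3, STING1 and TRAF3) and 6 in JR1 (STAT6, BATF3, SOCS2, SOCS3, USP18 and STING1), beside 7.37% and 9.05% of all tested genes, and none was higher. Their median change was -0.41 (RD) and -0.42 (JR1). The counts in RD rested on the scale: relative to the median tested gene 0 of the 39 genes were lower, and without the short structural RNAs 1 gene was, IFNL1 (-1.55), which passed the filter on that scale only. On the latter scale 3.46% of all 15220 genes that passed the filter were lower in RD. The plot of the lists shows each gene beside these medians.

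**Figure D3:**
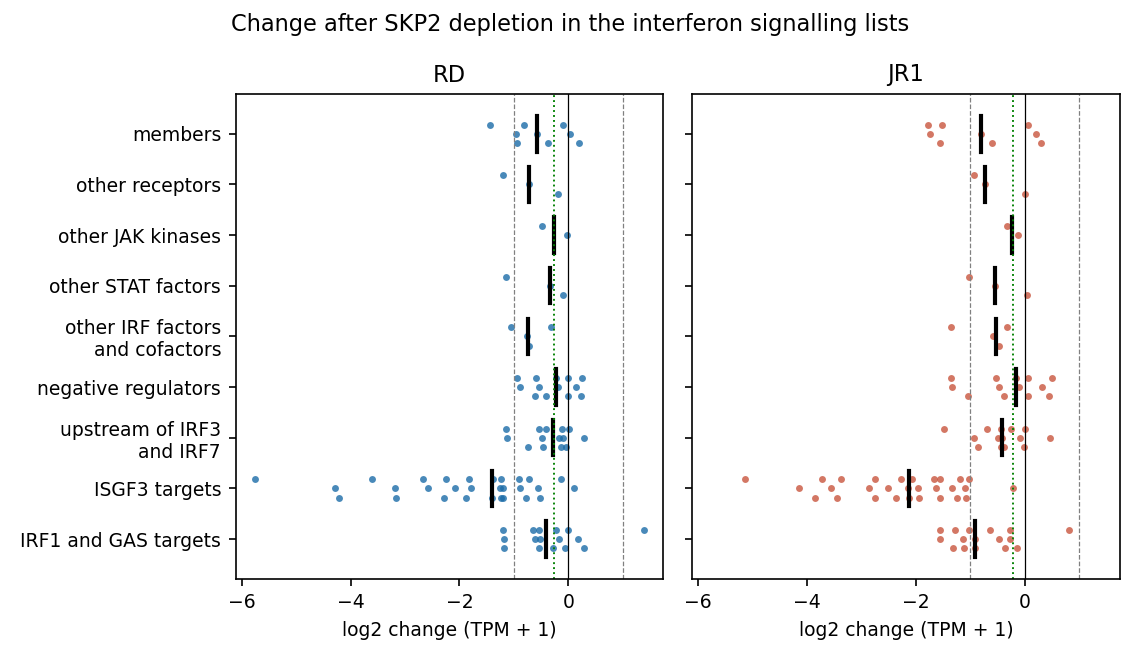
Log2 change of TPM + 1 (x axis) of each tested gene in the lists of interferon signalling in RD (left, blue) and JR1 (right, red), with a black bar at the median of a list, dashed lines at the limit of 1 and a green dotted line at the median of all tested genes (-0.27 in RD and -0.21 in JR1). The ISGF3 targets reach furthest to the left, with medians of -1.39 and -2.12.

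Interferon ligands were at or near 0. Of 13 ligand genes 10 were listed at 0 in all 4 libraries, among them IFNA1, IFNA2 and IFNG, and none was tested. IFNB1 did not exceed 0.08 TPM. IFNL1, a type III interferon, was the 1 ligand above 1 TPM, at 1.11 TPM in RD shSCR, 0.08 in RD shSKP2 and 2.35 in JR1 shSCR, and it was listed at 0 in JR1 shSKP2. Both shSCR libraries thus had more of it than both shSKP2 libraries, at levels so low that counting error, unknown here, weighs most. IFNLR1, the receptor chain for this ligand, was at 0.29 TPM or less in every library.

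Among the other STAT genes STAT6, which serves IL-4 and IL-13 signalling, fell in both lines (58.4 to 25.96 TPM in RD, 52.9 to 25.4 in JR1). Its changes were -1.14 and -1.03, but -0.74 and -0.79 without the short structural RNAs. STAT3, which serves IL-6 family cytokines, had changes of -0.33 and -0.54, or 0.08 and -0.29 without the short structural RNAs. STAT5B had changes of -0.10 and 0.05, or 0.31 in both lines on that scale. BATF3, a partner of IRF factors, fell in both lines (-1.05 and -1.35), with a value of -0.74 in RD without the short structural RNAs. IRF2BP1, IRF2BP2 and IRF2BPL, cofactors of IRF2, had changes between -0.32 and -0.76. With the short structural RNAs left out, their changes lay between -0.35 and 0.08. IRF4, IRF5 and IRF8, which are used mainly in blood cells, did not exceed 0.25 TPM.

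The 13 tested negative regulators had medians of -0.22 in RD and -0.15 in JR1, beside -0.27 and -0.21 for all tested genes. With the short structural RNAs left out, the medians of these regulators were positive, at 0.19 and 0.10. In RD none was lower by at least 1, beside 7.37% of all tested genes. In JR1 3 were lower, SOCS3 (-1.36), USP18 (-1.34) and SOCS2 (-1.05), beside 9.05%. Without the short structural RNAs the value of SOCS2 in JR1 was -0.94. SOCS3, an inducible inhibitor of JAK kinases, had 41.6 and 21.3 TPM in RD, and 40.1 and 15.04 TPM in JR1. USP18, which removes ISG15 from proteins and blocks the receptor at IFNAR2, had 14.4 and 7.35 TPM in RD, and 15.5 and 5.51 TPM in JR1. SOCS1, the other classical inducible inhibitor, had changes of -0.61 and -0.48. At the other end PIAS4 had changes of 0.22 and 0.50 and the phosphatase gene PTPN1 of 0.25 and 0.06. Upstream of IRF3 and IRF7, STING1, the adaptor for DNA sensing, was the 1 gene of 14 that fell in both lines (29.4 to 12.7 TPM in RD, 24.9 to 8.24 in JR1), with a value of -0.77 in RD without the short structural RNAs. TRAF3 fell in RD (-1.12, or -0.90 without the short structural RNAs) and had a change of -0.85 in JR1. The kinase genes TBK1 and IKBKE, which activate IRF3 and IRF7, differed: TBK1 had changes of -0.05 and -0.09, and IKBKE of -0.74 and -0.93. With the short structural RNAs left out, TBK1 had 0.35 and 0.15, and IKBKE -0.46 and -0.90. MAVS, the adaptor for RNA sensing, had changes of -0.12 and 0.01, or 0.29 and 0.27 without the short structural RNAs. AZI2, an adaptor of TBK1, had the highest values of this list, 0.28 and 0.46.

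Most ISGF3 target genes fell. Of 34 ISGF3 target genes 29 were tested. Lower by at least 1 were 21 in RD, beside 7.37% of all tested genes, 28 in JR1, beside 9.05%, and 21 in both, beside 4.79%. The median change was -1.39 in RD and -2.12 in JR1, beside -0.57 and -0.79 for the 9 members and -0.27 and -0.21 for all tested genes. The members behind ISGF3, STAT2 and IRF9, had changes of -1.44 and -0.94 in RD and -1.74 and -1.52 in JR1. In JR1 both lay above the median of these targets, and in RD IRF9 lay above it and STAT2 just below it. Summed over the list the level was 1730 and 296 TPM in RD, and 1836 and 309 TPM in JR1. OASL had the lowest value of the list in both lines (131.5 to 1.46 TPM in RD, 83.98 to 1.41 in JR1). The others that fell in both lines were IFIT1, IFIT2, IFIT3, IFI6, IFI44, MX2, OAS1, OAS2, OAS3, ISG15, ISG20, RSAD2, HERC5, HERC6, CMPK2, DDX60, PARP14, SAMD9, SAMD9L and BST2. BST2, a tether of budding virus, went down (6.30 to 0.23 TPM in RD, 16.6 to 0.70 in JR1). HERC5, the ligase for ISG15, fell as well (61.2 to 12.2 TPM in RD, 41.2 to 6.44 in JR1). IFI27 was under 1 TPM in both RD libraries, at 0.43 and 0.31 TPM, and fell from 10.4 to 0.71 TPM in JR1. SP110 was the tested target with the highest value in both lines, at 0.11 and -0.22. Without the short structural RNAs 17 of the same 29 targets were lower in RD and 25 in JR1, beside 3.46% and 7.49% of the 15220 genes that passed the filter on that scale. IFI6, OAS3, ISG20 and SAMD9L were no longer counted in RD there, at -0.83 to -0.99.

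Of 28 genes driven by IRF1 or through GAS elements 16 were tested. In RD 3 were lower (TAPBP, PSMB10 and WARS1), beside 7.37% of all tested genes. In JR1 7 were (PSMB10, PSMB8, GBP1, TAPBP, ICAM1, TAP1 and GBP3), beside 9.05%. The medians of the list were -0.41 and -0.90. PSMB10, a subunit of the immunoproteasome, had 8.89 and 3.38 TPM in RD, and 12.96 and 3.78 TPM in JR1. TAPBP, which loads peptides on MHC class I, had 78.2 and 33.5 TPM in RD, and 57.1 and 23.1 TPM in JR1. In RD no gene of this list was lower by at least 1 relative to the median tested gene. None was without the short structural RNAs either, beside 3.46% of all genes that passed the filter on that scale. TAP1, the peptide transporter, was at 14.1 and 13.97 TPM in RD and at 24.7 and 10.9 TPM in JR1, and GBP1, a guanylate-binding protein, was at 3.19 and 3.02 TPM in RD and at 20.8 and 7.71 TPM in JR1. GBP2 rose in RD, where it had 1.82 and 6.39 TPM (1.39), and had 2.99 and 6.04 TPM in JR1 (0.82). CXCL9, CXCL11 and HLA-DRA, typical targets of interferon gamma, were listed at 0.12 TPM or less in all libraries. The difference between the target lists was not tested.

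The genes with the pattern nearest to each member were found by the distance between their 4 values of log2(TPM + 1), each gene centred on its own mean. This likeness rests on 4 libraries. UBA7, which activates ISG15 for conjugation, was among the 3 nearest to IRF1 (distance 0.119), together with FBLN2 and ADCY7. CYBA (0.0925) and HELZ2 (0.171) were near IRF7, with LOC728392. OSMR (0.0661), a receptor chain for oncostatin M, TMEM167A and NFKBIZ were nearest to IRF9. HES4 (0.117), LOC112268313 and UBLCP1 were nearest to STAT2. The members with smaller changes had a closer first neighbour, PRR13 (0.0152) for JAK1, UCHL1 (0.0314) for IRF3, SNHG14 (0.0258) for IRF2, RAD50 (0.0424) for IFNAR1 and CASTOR3 (0.0348) for IFNAR2. The next nearest were SDHD and WDR3 for JAK1, TFE3 and PTPN14 for IRF3, AATBC and GZF1 for IRF2, TPBG and RHOB for IFNAR1, and ALCAM and CTSC for IFNAR2. RHOB (0.0728) and CTSC (0.0732) lay farther from their members than OSMR from IRF9.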

How the data were processed

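Each of the 4 groups (line by hairpin) had 1 RNA library. The authors selected poly-A RNA, made directional libraries, read pairs of 150 bases, aligned them to GRCh38 with STAR 2.7.9a and estimated gene expression with RSEM 1.3.2. The deposited values are TPM with the same sum in each library, and no counts were used here, so the depth and the error of a value are unknown. TPM were used as deposited. Changes are log2 ratios of TPM + 1, and a limit of 1 was applied to genes that averaged 1 TPM or more. Alternatives were a pseudocount of 0.1 TPM, centring on the median of tested genes, removal of 657 short structural RNA genes by symbol with rescaling, a 1.5-fold limit, a minimum mean of 5 TPM, all genes above 0 TPM and, for motifs, the bases before the start site only. Some genes of the pathway are not reported here. The lists were written from general knowledge, and members and lists were chosen with earlier results of these data known. Genes of these lists were named when they were a member, the highest or lowest of a list, past the limit in both lines or among the 3 nearest to a member, and others after their values were seen. The steps were tested on simulated data. Python 3.11.15, numpy 2.4.6, pandas 2.3.3 and matplotlib 3.10.9 were used.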

Additional observations from a re-analysis of the deposited data

Results flagged for a closer look

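The change had opposite signs in RD and JR1 for IFNAR1, IFNGR1, STAT5B and SP110, which was not tested because each group holds 1 library. Other named genes did so too, among them MAVS (-0.12 in RD and 0.01 in JR1) and DES (0.14 and -0.50). The change in RD minus that in JR1 was -0.40 for IFNAR1, -0.21 for IFNGR1, -0.15 for STAT5B and 0.33 for SP110. None of the 8 values of IFNAR1, IFNGR1, STAT5B and SP110 was larger than 0.30 in size. Without the short structural RNAs all 8 were positive, from 0.02 for SP110 in JR1 to 0.57 for IFNAR1 in JR1.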

How the results depend on the processing

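No paired analysis was possible because each group holds 1 library, and for the same reason no library could be left out. The count of members lower in JR1 was within 1.5 times its value under every alternative run, and in RD it went from 1 to 3 with 0.1 TPM added and to 4 at a 1.5-fold limit. Of the other pathway genes, 0 were lower in RD after centring, 1 without the short structural RNAs and 13 at the 1.5-fold limit, which gave 11 in JR1. Of the IRF1 and GAS target genes, 0 were lower in RD after centring and 0 without the short structural RNAs, 5 were lower at the 1.5-fold limit, and 4 were lower in JR1 after centring. GBP2 was the 1 gene of that list counted as higher in JR1 after centring, without the short structural RNAs and at the 1.5-fold limit, and 0 genes were higher in RD at a minimum of 5 TPM. Except for the removal of short structural RNAs, the share of all tested genes past the limit was not computed under the alternatives. The counts there therefore have no background beside them. The counts of ISGF3 target genes and the members' motif counts stayed within 1.5 times their values under each alternative run for them. Of 36 values of the members' changes under alternatives in each line, 28 in RD and 34 in JR1 kept their sign and side of the limit, 5 and 2 newly passed it, and in RD 3 changed sign (JAK1 and IFNAR1) while lying under it. TPM keep no depth, so what low values such as those of IFNL1 can show is limited.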
